A study of Mus musculus with 9 samples.

Results

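The genes described are the NEDD4-type ubiquitin ligases Nedd4, Nedd4l, Itch, Wwp1, Wwp2, Smurf1 and Smurf2 and their membrane adaptors Ndfip1 and Ndfip2. These 9 genes were taken by symbol from the 55487 gene identifiers in the count lists, and the list was chosen by the measured fall of Nedd4 in C/EBPδ knock-out against wild-type macrophages, to ask whether its relatives changed. RNA was sequenced from unstimulated RAW264.7 cells, a mouse macrophage line, in 3 libraries each of wild-type, knock-out and ΔTAD cells. Knock-out cells carried out-of-frame CRISPR edits of Cebpd, ΔTAD cells had lost the transactivation domain of C/EBPδ at the endogenous locus, and wild-type cells kept the whole protein. The edited cells came from clones, of which the series describes 3 as independent, but whether each library is a clone of its own is not stated, so that p-values measure the spread between these libraries and clone and genotype cannot be told apart.

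Ubiquitin ligases of the HECT type take activated ubiquitin from a conjugating enzyme onto a catalytic cysteine and pass it on to a protein substrate. Members of the NEDD4 family carry a lipid-binding C2 domain and several WW domains, which recognise PY motifs in substrates and adaptors. They sort membrane proteins into endosomes and lower the amount of signalling proteins, among them receptors and SMADs of the TGF-β pathway, and NDFIP1 and NDFIP2 bind and activate them.

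Libraries held 16113306 to 20981829 counts on genes. All 7 macrophage markers examined were present, from 259 counts for Fcgr1 up to 88391 for Lyz2, and 6 markers of other cell types (Cd3e, Ly6g, Siglech, Kit, Epcam and Col1a1) had 0 to 3 counts. Cebpd itself, the edited gene, had 6.51 ± 0.674 CPM (n = 3) in wild-type cells, 5.44 ± 0.201 CPM in knock-out cells and 5.44 ± 0.669 CPM in ΔTAD macrophages (counts scaled to library size by TMM), and since counts over the whole gene do not read an edit inside it, they do not check the labels. The first ΔTAD library stood apart, as 11.0% of its counts fell on the single identifier CT010467.1 against 0.303% to 1.16% in the other 8 libraries. In bulk RNA, fewer cells expressing a gene and less RNA per cell cannot be told apart.

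The 250 bases before the transcription start are shown for both Nedd4 starts, the gene whose level differed most, and for Smurf1, a relative that was higher in the edited cells. They were taken from RefSeq promoters on GRCm38.p6, which matched 5 of the 9 genes, and Nedd4l, Itch, Wwp1 and Ndfip1 had no entry. Capitals mark matches, on either strand, to CCAAT, the box after which C/EBP proteins were named (ATTGG on the other strand), or to the spaced letters TTNCNNAA that C/EBP sites often hold. The sequences run 5′ to 3′ and lie at chr9:72662081-72662330 (plus strand), chr9:72693048-72693297 (plus strand, inside the gene) and chr5:144965831-144966080 (minus strand).
Nedd4, first start: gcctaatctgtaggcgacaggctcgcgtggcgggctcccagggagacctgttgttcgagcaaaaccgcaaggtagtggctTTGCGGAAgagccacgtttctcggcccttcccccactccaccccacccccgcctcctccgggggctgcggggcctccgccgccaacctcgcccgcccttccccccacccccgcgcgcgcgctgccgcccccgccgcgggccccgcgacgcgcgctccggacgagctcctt
Nedd4, second start: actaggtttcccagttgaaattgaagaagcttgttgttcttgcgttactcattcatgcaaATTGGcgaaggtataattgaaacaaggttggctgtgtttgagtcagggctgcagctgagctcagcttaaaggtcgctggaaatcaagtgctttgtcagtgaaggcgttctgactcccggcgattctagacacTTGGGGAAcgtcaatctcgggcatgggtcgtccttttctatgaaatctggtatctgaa
Smurf1: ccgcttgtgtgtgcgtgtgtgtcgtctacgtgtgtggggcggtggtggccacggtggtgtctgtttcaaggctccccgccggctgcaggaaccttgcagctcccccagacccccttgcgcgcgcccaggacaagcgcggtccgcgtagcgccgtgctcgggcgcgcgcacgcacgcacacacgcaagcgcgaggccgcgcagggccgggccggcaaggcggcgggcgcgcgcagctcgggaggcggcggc
The first Nedd4 promoter held 1 match to TTNCNNAA, beginning at position -170 from the start, and none to CCAAT. The second held CCAAT at -190 and TTNCNNAA at -58. Neither motif was found in these windows of Smurf1, Smurf2 and Wwp2, and Ndfip2 had 1 CCAAT match at -104. CCAAT was present in 33.8% and TTNCNNAA in 36.8% of all 32851 promoters of the same length, so that a match is common.

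Nedd4 (ENSMUSG00000032216, chr9:72662346-72749852 on GRCm38, plus strand), which gives the family its name, was well expressed in wild-type macrophages, low in ΔTAD and at a trace in knock-out macrophages. Counts were 8383, 7198 and 6783 in the wild-type libraries, 1 in each of the 3 knock-out libraries, and 255, 325 and 331 in ΔTAD macrophages. In TMM-scaled CPM this was 415 ± 3.83 (SD, n = 3) in wild-type cells, 0.0566 ± 0.00385 in knock-out cells and 16.4 ± 1.25 in ΔTAD cells. At 1 count in each knock-out library, the knock-out SD holds only differences in library scaling. That level lies under the floor set at 3 counts (0.143 to 0.210 CPM). No library of a genotype overlapped with those of another, with ΔTAD macrophages at 3.95% of the wild-type mean and knock-out macrophages at 0.0136%. The scaled wild-type counts were 7359.5 times those of knock-out (95% exact interval 2518 to 35690) and 25.6 times those of ΔTAD macrophages (23.9 to 27.4), and ΔTAD counts were 288 times those of knock-out macrophages (98.1 to 1397), where the intervals cover counting error only. As the list was drawn up from this loss, the values of Nedd4 are given as a description without a test.

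Reads counted on short annotated genes inside Nedd4 followed it. A530064N14Rik, Gm7265 and Gm36936 lie on the same strand as Nedd4 without sharing exons with it, and are annotated as transcripts awaiting experimental evidence. A530064N14Rik had 37, 36 and 26 counts in wild-type, 0 in every knock-out library and 0, 2 and 0 in ΔTAD macrophages. Gm7265 had 28, 25 and 46 counts in wild-type, 0 in every knock-out library and 1, 0 and 0 in ΔTAD macrophages. Gm36936 had 65, 61 and 38, then 1, 0 and 0, then 2, 2 and 1 counts. Reads of unspliced Nedd4 RNA and of these genes cannot be told apart. Genes around Nedd4 changed far less, as is shown by the plot of log2 fold changes against distance from its start. Of 29 tested genes outside Nedd4 whose start lay within 1 Mb, 5 were lower and 0 higher in knock-out than in wild-type macrophages (edgeR's quasi-likelihood test, Benjamini-Hochberg adjusted p under 0.01), with a median log2 fold change of -0.02, beside 45.2% of all 14312 genes called in either direction. In ΔTAD macrophages 7 were lower and 0 higher with a median of -0.28, beside 49.7% of all genes called. The shares of all genes called lower were 22.4% in knock-out and 23.4% in ΔTAD macrophages. Many of these neighbours had few reads, and the 5 lower in knock-out macrophages had at least 8.60 CPM in wild-type cells. The part of level in these calls was not tested. Upstream, the nearest tested gene was Gm37105, at -67423 bases from the start of Nedd4 and with 1.41 CPM in wild-type cells. Its log2 fold change was -0.16 in knock-out (adjusted p = 0.687) and -0.28 in ΔTAD macrophages (adjusted p = 0.452). On the other side it was A530064N14Rik inside Nedd4. The nearest protein-coding genes, picked after their values were seen, were Rfx7, lower by a log2 fold change of -0.36 in knock-out (adjusted p = 1.82e-08) and -0.25 in ΔTAD macrophages (adjusted p = 4.59e-06), and Prtg, with 0.23 (adjusted p = 0.0173) and -0.01 (adjusted p = 0.961).

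**Figure D1:**
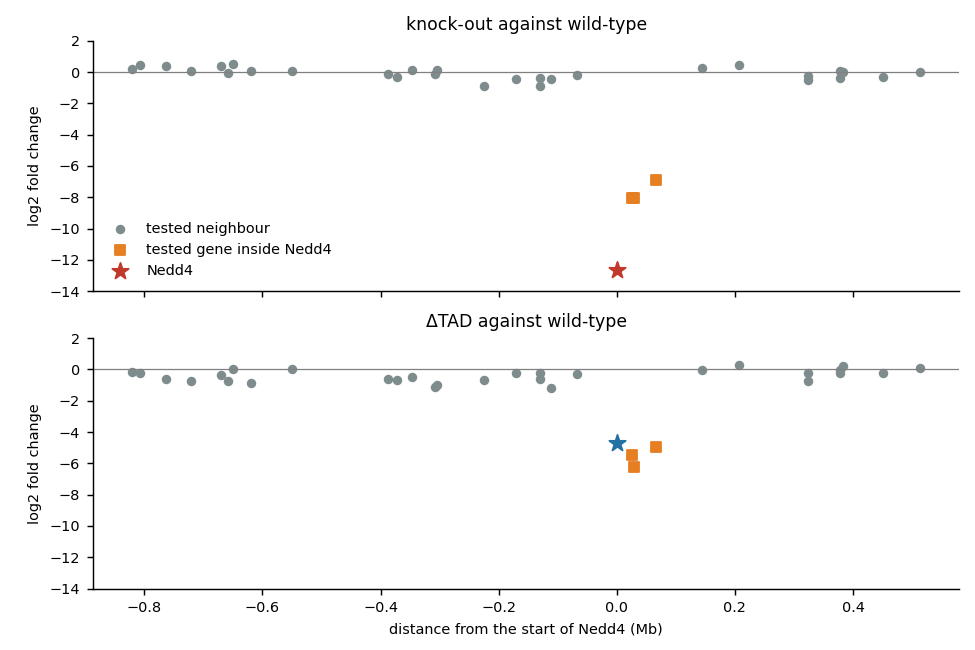
Log2 fold change against distance in Mb from the start of Nedd4, for tested genes with a start within 1 Mb, in knock-out (upper) and ΔTAD (lower) against wild-type macrophages. The star is Nedd4 at -12.68 and -4.67, squares are the 3 tested genes inside it, and circles are the 29 other genes, which stay far above both.

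Of the 8 relatives, Wwp1, Smurf1 and Ndfip1 rose in both knock-out and ΔTAD macrophages, and Itch, Wwp2, Smurf2 and Ndfip2 did not pass the test in either. Nedd4l had far fewer counts in both, but it entered the test only through the wild-type libraries, where it is high, so it is described and left out of the counts here. The 3 of 7 that rose stand beside 22.8% of all genes called higher in knock-out cells and 26.3% in ΔTAD cells. The 3 of 7 (42.9%) called in each comparison were close to the 45.2% of all genes called in knock-out and the 49.7% called in ΔTAD macrophages. The 2 comparisons share the wild-type libraries. In absolute size the change of Wwp1 exceeded that of 83.0% of all genes tested in knock-out cells and 86.8% in ΔTAD cells. For Smurf1 these shares were 77.5% and 77.7%, for Ndfip1 41.5% and 37.7%, and for the 4 relatives that did not pass at most 14.97% and 27.9%. Between knock-out and ΔTAD macrophages 1 of 7 (14.3%) passed, Wwp1, where 33.0% of all genes did (13.9% higher and 19.1% lower in knock-out). Libraries of the 2 genotypes did not overlap for 3 of 7 relatives in each comparison with wild-type and for 1 of 7, Wwp1, between knock-out and ΔTAD macrophages, beside 59.7%, 63.1% and 52.8% of all genes.

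**Figure D2:**
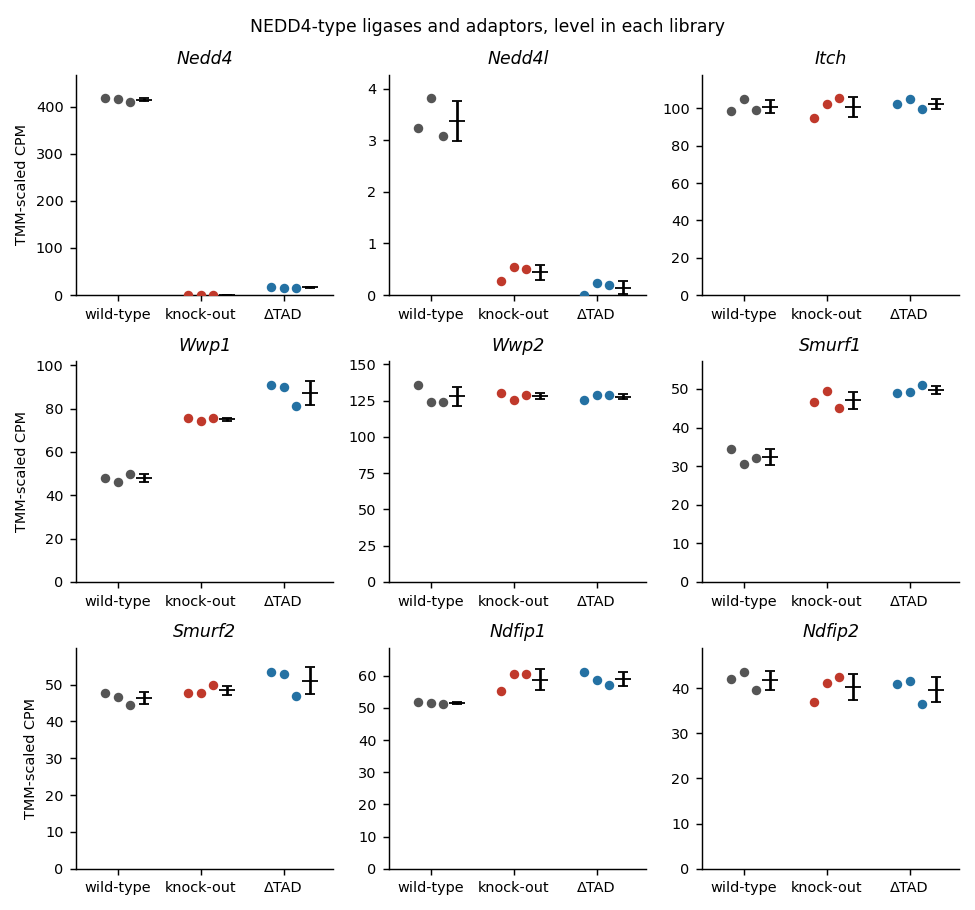
Level of each gene in TMM-scaled CPM in the 3 libraries of wild-type, knock-out and ΔTAD macrophages, with the mean and SD beside them. Each panel starts at 0 and has its own scale. Nedd4 and Nedd4l are low in all edited libraries, Wwp1 and Smurf1 are above wild-type in all 6, and Itch and Wwp2 lie at one level.

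Nedd4l (ENSMUSG00000024589, chr18:64887705-65217828), the closest relative of Nedd4 and known for removing the epithelial sodium channel from the membrane, was scarce in all genotypes. Its counts were 65, 66 and 51 in wild-type cells, 5, 9 and 9 in knock-out cells and 0, 5 and 4 in ΔTAD cells, or 3.38 ± 0.386, 0.439 ± 0.153 and 0.143 ± 0.127 CPM (n = 3). All edited libraries were below all wild-type libraries. The means were 13.0% of wild-type in knock-out cells and 4.24% in ΔTAD cells. As no edited library had 10 counts, these values are given as a description without a test. Between knock-out and ΔTAD macrophages, at 0 to 9 counts each, the libraries did not overlap in CPM. In counts, knock-out replicate 1 and ΔTAD replicate 2 were equal at 5 (0.264 and 0.240 CPM). No count fell on the antisense gene A330084C13Rik, which shares exons with Nedd4l on the other strand.

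Wwp1 (ENSMUSG00000041058, chr4:19608303-19708993, minus strand), a ligase reported to act on KLF and SMAD proteins, was higher in knock-out and higher still in ΔTAD macrophages. The libraries gave 47.8, 46.0 and 50.0 CPM in wild-type cells, 75.4, 74.1 and 75.4 in knock-out cells and 90.9, 89.7 and 81.0 in ΔTAD cells, and the 3 ranges did not overlap. Against wild-type this was a 1.57-fold rise in knock-out (log2 fold change 0.65 ± 0.05 SE, adjusted p = 7.42e-12) and a 1.82-fold rise in ΔTAD macrophages (0.86 ± 0.04, adjusted p = 1.71e-14). The knock-out level was below that of ΔTAD macrophages by a log2 difference of -0.21 ± 0.04 (edgeR adjusted p = 0.000184). This call was lost when libraries were scaled by their size alone (-0.14, adjusted p = 0.0672), and the difference was -0.43 with an offset for GC content and length. Size alone makes no allowance for the first ΔTAD library, where 11.0% of counts fell on CT010467.1. Its TMM factor was 0.888, beside 0.999 to 1.03 in the other libraries, and its part in the loss was not tested. Most of the few tested genes nearby were higher as well. Of 5 that start within 1 Mb of Wwp1, 4 rose and 0 fell in knock-out macrophages, with a median log2 fold change of 0.47. In ΔTAD macrophages 3 rose and 0 fell, with a median of 0.47. Of all genes tested, 22.8% rose in knock-out and 26.3% in ΔTAD macrophages. The medians over chromosome 4 were -0.03 and 0.03. Among the 5 was Cpne3, picked after its values were seen, with 0.47 in both. The gene Gm12353, whose exons overlap those of Wwp1 on the other strand, had 1 to 6 counts. The part of position in the rise of Wwp1 was not tested.

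Smurf1 (ENSMUSG00000038780, chr5:144876495-144965847, minus strand), which marks SMADs and TGF-β receptors for degradation, had 34.6, 30.5 and 32.1 CPM in wild-type cells, 46.6, 49.5 and 45.0 in knock-out cells and 49.0, 49.2 and 51.0 in ΔTAD cells. Every edited library lay above every wild-type library. It rose 1.45-fold in knock-out (log2 fold change 0.53 ± 0.05 SE, adjusted p = 8.05e-09) and 1.53-fold in ΔTAD macrophages (0.62 ± 0.05, adjusted p = 4.31e-10), and those 2 genotypes overlapped, with a log2 difference of -0.08 (95% interval -0.18 to 0.02, adjusted p = 0.194). Around Smurf1 the genes went both ways, with 5 higher and 3 lower of 20 in knock-out cells and 5 higher and 5 lower in ΔTAD cells. These stand beside 22.8% of all genes called higher and 22.4% lower in knock-out, and 26.3% and 23.4% in ΔTAD cells. Its paralog Smurf2 (chr11:106820066-106920715) had 46.3 ± 1.68, 48.4 ± 1.17 and 51.0 ± 3.70 CPM in wild-type, knock-out and ΔTAD macrophages. Neither its difference in knock-out (log2 0.06, interval -0.04 to 0.16, adjusted p = 0.331) nor that in ΔTAD macrophages (0.13, 0.03 to 0.23, adjusted p = 0.0278) passed the test, though the latter passed without ΔTAD replicate 3 (0.20, adjusted p = 0.00205), with every gene of at least 1 count in the fit (0.16, adjusted p = 0.00488) and with an offset for GC content and length (0.16, adjusted p = 0.00864).

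Itch (chr2:155133509-155226855), which acts on JUN proteins in lymphocytes and whose loss causes inflammation in mice, did not pass the test in any comparison. It had 98.5, 105.1 and 99.3 CPM in wild-type cells, 94.9, 102.2 and 105.5 in knock-out cells and 102.4, 105.02 and 99.7 in ΔTAD cells. The 95% intervals of its log2 fold changes ran from -0.08 to 0.07 in knock-out (adjusted p = 0.967) and from -0.06 to 0.10 in ΔTAD macrophages (adjusted p = 0.675). Wwp2 (chr8:107436365-107558595), a ligase known for acting on OCT4, had 128 ± 6.65, 128 ± 2.37 and 128 ± 1.98 CPM, with intervals of -0.07 to 0.07 in both comparisons and an adjusted p of 0.946 in ΔTAD against wild-type macrophages. With an offset for GC content and length, Itch (0.12, adjusted p = 0.00731) and Wwp2 (-0.11, adjusted p = 0.00446) passed in ΔTAD against wild-type macrophages.

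Of the adaptors, Ndfip1 passed the test in both comparisons with wild-type and Ndfip2 in neither. Ndfip1 (ENSMUSG00000024425, chr18:38410396-38465303), a Golgi and endosome membrane protein that recruits ITCH and NEDD4 through its PY motifs, had 52.0, 51.5 and 51.2 CPM in wild-type cells, 55.2, 60.6 and 60.7 in knock-out cells and 61.2, 58.6 and 57.2 in ΔTAD cells. The edited libraries were all above wild-type, but by 1.14-fold in each genotype, and the log2 fold change was 0.19 ± 0.04 SE in knock-out (adjusted p = 0.00091) and 0.19 ± 0.04 in ΔTAD macrophages (adjusted p = 0.000693). Both calls were lost with scaling by library size alone (adjusted p = 0.0235 and 0.184). The part of the first ΔTAD library, with its TMM factor of 0.888, in these losses was not tested. The call in knock-out was also lost without knock-out replicate 3 (0.16, adjusted p = 0.0126), and that in ΔTAD cells without ΔTAD replicate 1 (0.14, adjusted p = 0.0196). Ndfip2 (chr14:105258573-105309298), with the same topology and binding motifs, had 41.7 ± 2.07, 40.2 ± 2.86 and 39.7 ± 2.76 CPM. Its log2 fold changes were -0.06 (interval -0.18 to 0.06, adjusted p = 0.467) and -0.08 (-0.20 to 0.04, adjusted p = 0.288).

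**Figure D3:**
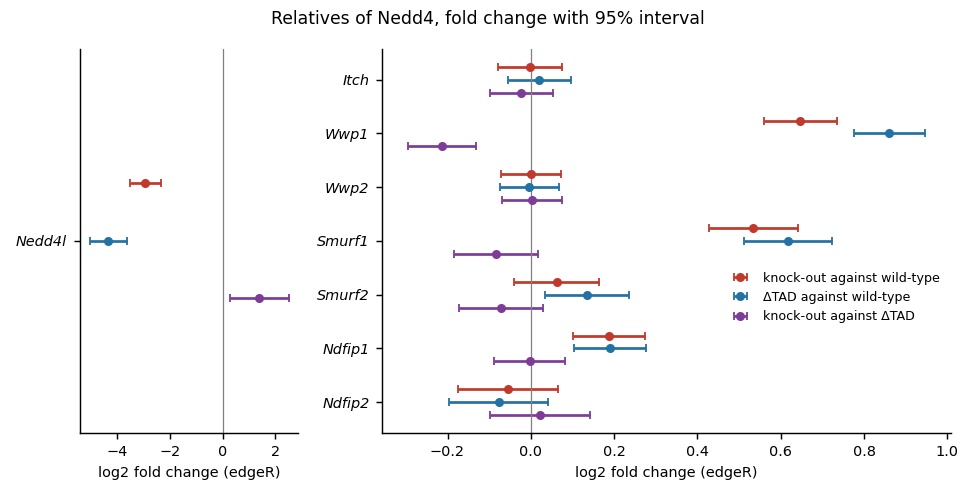
Log2 fold change of the 8 relatives in the 3 comparisons, with 95% intervals of 1.96 SE. Nedd4l has an axis of its own and is shown as a description. The intervals of Wwp1 and Smurf1 against wild-type lie to the right of 0, those of Itch, Wwp2 and Ndfip2 include 0 throughout.

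Levels were divided by the length of all annotated exons of a gene, to set genes side by side. Which exons the transcripts in these cells hold was not measured, so order, sums and shares rest on that length. In wild-type macrophages Nedd4 led with 37.8 CPM per kb, followed by Wwp2 at 14.4, Itch at 10.4, Ndfip1 at 8.15, Smurf2 at 7.51, Wwp1 at 7.42, Smurf1 at 5.11, Ndfip2 at 3.61 and Nedd4l at 0.192. Smurf2 and Wwp1 overlapped between libraries, and no other neighbours in this order did. In knock-out macrophages Wwp2 led at 14.4 CPM per kb, Wwp1 moved up to 11.6, ahead of Itch at 10.4, and Smurf1 at 7.42 reached the range of Smurf2 at 7.86. The order was the same in ΔTAD macrophages down to Ndfip2, with Wwp1 at 13.5 CPM per kb, and only there was Nedd4 (1.49) above Nedd4l (0.00813) among the edited genotypes.

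Summed over the 7 ligases, the level was 82.9 ± 1.27 CPM per kb in wild-type cells, 51.8 ± 0.505 in knock-out cells and 56.1 ± 1.43 in ΔTAD cells (n = 3), or 62.4% and 67.7% of wild-type. Nedd4 made up 45.6 ± 0.420% of this sum in wild-type cells, 0.00997% in knock-out cells (from 1 count per library) and 2.66 ± 0.185% in ΔTAD cells. Without it the other 6 ligases summed to 45.1 ± 0.999, 51.8 ± 0.505 and 54.6 ± 1.39 CPM per kb, which is 6.68 more in knock-out and 9.53 more in ΔTAD than in wild-type macrophages. The sum of all 7 differed from that of wild-type by -31.1 CPM per kb in knock-out and by -26.8 in ΔTAD cells, a fall that the choice of the list by the loss of Nedd4 brings with it. Of the 6 ligases without Nedd4, Wwp1 made up 16.5 ± 0.819% in wild-type cells, 22.5 ± 0.327% in knock-out cells and 24.7 ± 0.951% in ΔTAD cells.

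**Figure D4:**
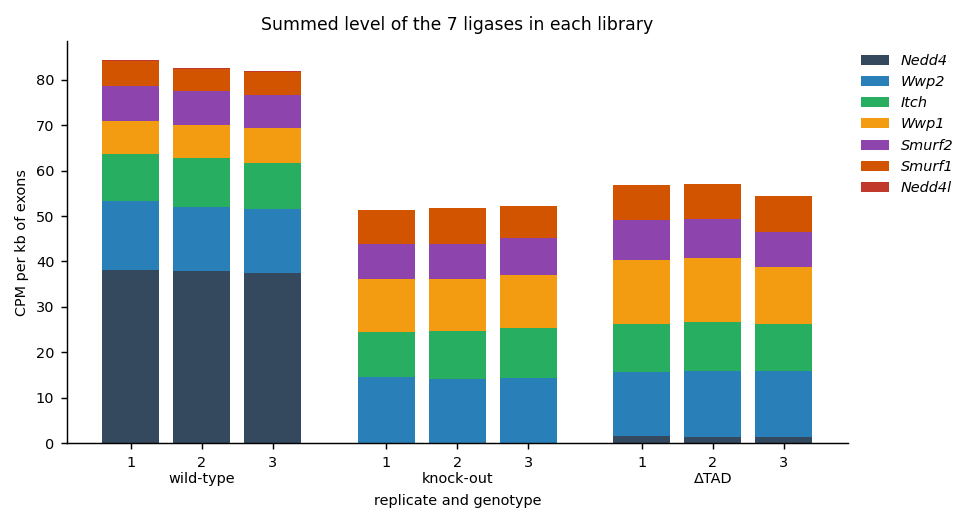
Summed level of the 7 ligases in CPM per kb of exons, 1 stacked bar per library. The wild-type bars reach about 83 with Nedd4 as their lowest block, the knock-out bars about 52 without a visible Nedd4 block, and the ΔTAD bars about 56.

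The genes most like Nedd4 over the libraries were sought. Of 9233 tested genes with at least 10 CPM in their highest genotype, 17 had a Pearson r above 0.99 with Nedd4 on log2 CPM over the 9 libraries, and the most alike were Ly6e (r = 0.999), Sema5a (0.998) and Atic (0.996). The points share 3 genotypes and their libraries, so r describes the order and spacing of the genotypes rather than the size of the change. Ly6e, a lipid-anchored surface protein, had 9332, 7619 and 7541 counts in wild-type cells, 1, 3 and 2 in knock-out cells and 235, 316 and 362 in ΔTAD cells, which is near the pattern of Nedd4 in size too. Sema5a, a semaphorin, had 70.5, 17.7 and 42.2 CPM, and Atic, a purine synthesis enzyme, had 270, 217 and 248 CPM in wild-type, knock-out and ΔTAD macrophages.

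The surrounding pathway was examined in 4 lists of 61 genes besides the brain-expressed HECW ligases. Hecw1 had 0 counts in every library and Hecw2 had 0 to 4, and neither was tested. Over all lists, 57 of 63 genes were tested, and 31 (54.4%) passed in knock-out against wild-type, 38 (66.7%) in ΔTAD against wild-type and 32 (56.1%) in knock-out against ΔTAD macrophages, next to 45.2%, 49.7% and 33.0% of all genes. Their median level was 66.9 CPM against 22.5 CPM over all genes tested, and the part of this in their calls was not tested. With a log2 fold change of at least 1 asked for as well, 6, 5 and 1 passed. The 6 and the 5 include Notch1, which entered the test only through its wild-type libraries.

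**Figure D5:**
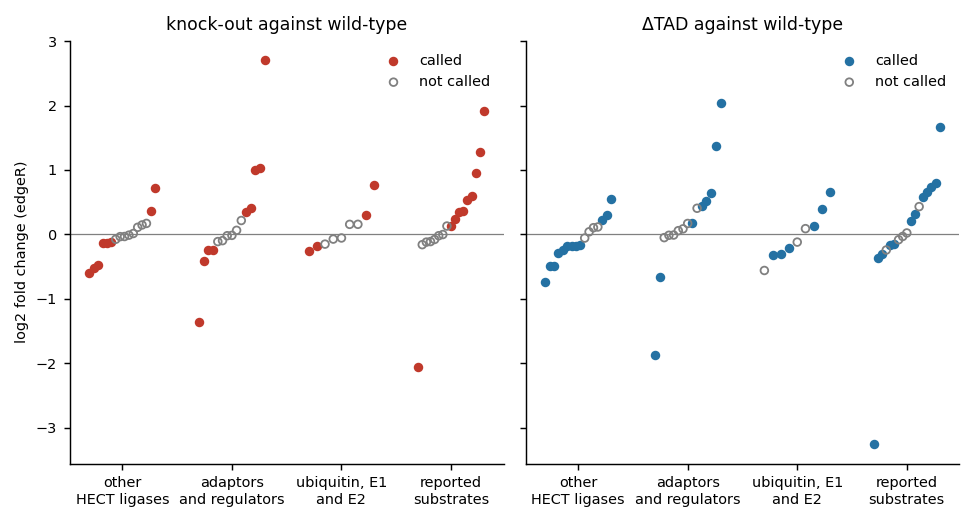
Log2 fold change of the tested genes of the 4 pathway lists, sorted within each list, in knock-out (left) and ΔTAD (right) against wild-type macrophages. Filled points passed the test and open points did not. The HECT ligases lie within 1 of 0, and the widest spread is among adaptors and substrates.

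Of the other HECT ligases, 16 of 17 were tested, and 2 rose and 6 fell in knock-out, 3 rose and 9 fell in ΔTAD macrophages, with median log2 fold changes of -0.03 and -0.17. Of all genes tested, 22.8% rose and 22.4% fell in knock-out, and 26.3% rose and 23.4% fell in ΔTAD macrophages, with medians of -0.00 in both, and these shares apply to the next lists too. Arel1, which ubiquitinates inhibitor-of-apoptosis antagonists, fell from 82.2 CPM to 57.0 and 58.6 (log2 fold changes -0.53 and -0.48). It lies on chromosome 12, over which the median of 541 tested genes was -0.52 in knock-out cells and -0.54 in ΔTAD cells, and the part of this shift in its fall was not tested. Ube3c, which works at the proteasome, fell from 174 CPM to 125 in both (-0.48 and -0.48) and lies on chromosome 5 with a median of 0.01 and -0.03.

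Other adaptors and regulators went both ways, with 5 higher and 4 lower of 15 tested in knock-out cells and 6 higher and 2 lower in ΔTAD cells. Pmepa1, a PY-motif membrane protein that binds NEDD4-type ligases and dampens TGF-β signalling, rose from 1.51 ± 0.497 CPM to 10.1 ± 0.773 in knock-out cells and 6.36 ± 0.486 in ΔTAD cells (log2 fold changes 2.71 and 2.04, adjusted p = 4.31e-13 and 3.52e-10). Sgk3, of a kinase family that phosphorylates NEDD4L, rose from 27.3 CPM to 55.8 and 70.3 (1.04 and 1.37), and Litaf, an endosomal PY-motif protein, from 85.7 to 109 and 123 (0.35 and 0.52). Of genes picked after their values were seen, Sgk1, the kinase best known for restraining NEDD4L, fell from 7.52 CPM to 2.92 and 2.03 (-1.36 and -1.87), while Sgk3 rose. Usp9x, a deubiquitinase that binds several of the ligases, had 412, 406 and 261 CPM, and was lower in ΔTAD than in wild-type (log2 -0.66, adjusted p = 9.67e-13) and knock-out macrophages (0.64 in knock-out against ΔTAD, adjusted p = 8.83e-12).

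Among ubiquitin genes and the E1 and E2 enzymes before the ligases, 2 rose and 2 fell of 9 in knock-out cells and 3 rose and 3 fell in ΔTAD cells. Ube2l3, a conjugating enzyme of HECT ligases, rose from 76.0 CPM to 93.6 and 100.6 (log2 fold changes 0.30 and 0.40). Uba1, the main activating enzyme, fell from 574 CPM to 507 and 495 (-0.18 and -0.21).

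Of reported substrates, 17 of 18 were tested, and 9 rose and 1 fell in knock-out, 7 rose and 5 fell in ΔTAD macrophages, with medians of 0.13 and 0.02. These are RNA levels, and the amount of substrate protein was not measured here. Tgfbr1, the type I TGF-β receptor, rose from 43.4 ± 3.51 CPM to 163 ± 2.90 in knock-out cells and 137 ± 7.69 in ΔTAD cells (log2 fold changes 1.92 and 1.66, adjusted p = 1.17e-20 and 1.73e-19). Klf2, a transcription factor degraded through SMURF1, rose from 19.3 to 37.5 and 31.9 CPM (0.96 and 0.73), and Junb, a substrate of ITCH, from 76.5 to 116 and 133 CPM (0.60 and 0.80). The single gene counted as falling in knock-out macrophages was Notch1, with 33, 26 and 27 counts in wild-type cells, 8, 7 and 5 in knock-out cells and 2, 5 and 2 in ΔTAD cells. It too entered the test only through its wild-type libraries, and without it 30 of 56 list genes passed in knock-out and 37 of 56 in ΔTAD macrophages. Egr2, also picked after its values were seen, rose in knock-out (6.35 to 15.5 CPM, 1.28, adjusted p = 1.81e-09) and had 5.34 CPM in ΔTAD macrophages (-0.24 against wild-type, adjusted p = 0.153), below knock-out (1.52 in knock-out against ΔTAD, adjusted p = 4.91e-10).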

How the data were processed

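Counts per gene were analysed for 9 libraries, grouped by the genotype in the sample labels. Per the paper's methods, the authors depleted ribosomal RNA, checked single reads with FastQC, trimmed with Trimmomatic, aligned to GRCm38 with Hisat2 and counted with HTSeq on Ensembl genes. The deposited values are raw read counts. Strand and overlap mode of the counting are not given in the sources used here, so overlapping and antisense genes are uncertain. Tally lines that name no gene (46.8% to 53.3% of a library) were left out. The 9 genes and all lists were chosen with earlier results of these data known.

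With edgeR 4.0.16 in R 4.3.3, filterByExpr (minimum count 10, minimum total 15) kept 14312 genes. After TMM scaling, 1 quasi-likelihood model over all 9 libraries was fitted, with calls made at a Benjamini-Hochberg adjusted p, taken over every tested gene, under 0.01. Standard errors were derived from F (log2 fold change over its square root). The procedure was tested on simulated data. The floor was set at 3 counts (0.143 to 0.210 CPM). Exon lengths and positions are from GENCODE on GRCm38. Named genes were all 9 members and the HECW ligases, up to 3 per list with the smallest adjusted p in knock-out against wild-type and at least 10 CPM, the 3 most like Nedd4, and its nearest tested neighbours. Others are marked where they occur. Some genes that the rule names are not reported here. Alternatives were DESeq2 1.42.0, limma-voom 3.58.1, other scalings, filters and thresholds, a GC and length offset, leaving out chromosomes 12 and 17, a replicate block and leaving out each library.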

Additional observations from a re-analysis of the deposited data

Results flagged for a closer look

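Wwp1 differed between knock-out and ΔTAD macrophages. It was higher than in wild-type by a log2 fold change of 0.65 in knock-out cells and 0.86 in ΔTAD cells, and the direct comparison gave -0.21 (edgeR adjusted p = 0.000184), with all 3 knock-out libraries below all 3 ΔTAD libraries. With scaling by library size alone it was -0.14 and no longer passed (adjusted p = 0.0672), and with an offset for GC content and length it was -0.43 (adjusted p = 3.57e-09). Size alone makes no allowance for the first ΔTAD library, with its TMM factor of 0.888, and the part of that library was not tested.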

How the results depend on the processing

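Over 24 contrasts of the 8 relatives, 476 values under alternatives were compared with the main fit. Of these, 419 kept direction and side of the threshold, 5 lost their call, 6 gained one and 46 changed sign. Nedd4l gave 19, 19 and 18 of these values in the 3 comparisons, and all kept both. It entered the test only through its wild-type libraries, so its values are no measure of stability. No sign changed in a contrast where the relative was called in the main fit. With the offset for GC content and length, Ndfip2 between knock-out and ΔTAD changed sign and gained a call (-0.28). It is tallied as a sign change. Wwp1 and Smurf1 kept their calls against wild-type under every alternative except the minimum change of 1 on the log2 scale. The filter of 10 counts in every library gave no value for Nedd4 and Nedd4l. Counting Nedd4l, 4, 4 and 1 relatives were called in the 3 comparisons. When changes under 1 on the log2 scale were not called, relatives called fell to 1 in knock-out and 1 in ΔTAD cells compared with wild-type. Between the edited genotypes they fell to 0. In both comparisons with wild-type the relative left was Nedd4l, which is described above without a test. Genes of the pathway lists fell to 6, 5 and 1, where the 6 and the 5 include Notch1. An offset for GC content and length gave 7 relatives in ΔTAD against wild-type, adding Itch (0.12), Wwp2 (-0.11) and Smurf2 (0.16), and 3 between knock-out and ΔTAD, adding Itch (-0.14) and Ndfip2 (-0.28). In the latter comparison library size alone gave 0 relatives. An adjusted p under 0.05 gave 2, Wwp1 and Nedd4l, and Nedd4l had at most 9 counts in those libraries. The cause was not tested. Leaving out each library in turn gave 3 to 4, 3 to 5 and 1 to 1 relatives in the 3 comparisons, counting Nedd4l. List genes called were 27 to 32, 36 to 40 and 23 to 34.

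Sign changes, in contrasts where the main fit gave a log2 fold change near 0, were as follows. In knock-out against wild-type, Itch was 0.0016 with every gene of at least 1 count and 0.0033 without chromosomes 12 and 17, and Wwp2 was 0.001 with DESeq2, 0.0002 with limma-voom, 0.0038 with every gene, 0.0002 with only the 2 genotypes, 0.0055 without chromosomes 12 and 17 and 0.001 without CT010467.1, a setting chosen after seeing the data. In ΔTAD against wild-type, Itch was -0.0678 with library size alone and -0.0012 without CT010467.1, Wwp2 was 0.0184 with every gene, and Ndfip2 was 0.0911 with the offset. Between knock-out and ΔTAD, Itch was 0.0507 with library size alone, 0.0045 with only the 2 genotypes and 0.0004 without chromosomes 12 and 17, Wwp2 was -0.0146 with every gene, Smurf1 was 0.0131 and Ndfip2 -0.281 with the offset, and Ndfip1 was 0.0034 with DESeq2, 0.0085 with its size factors, 0.0699 with library size alone, 0.0073 with at least 10 counts in every library, 0.0245 with only the 2 genotypes, 0.0206 without chromosomes 12 and 17 and 0.0202 without CT010467.1. With 1 library left out, Itch ran from -0.0432 to 0.0477, Wwp2 from -0.0215 to 0.0508 and Ndfip2 from -0.1047 to 0.0102 in knock-out against wild-type, Itch from -0.0074 to 0.0543 and Wwp2 from -0.0234 to 0.0443 in ΔTAD against wild-type, and Itch from -0.0617 to 0.023, Wwp2 from -0.0064 to 0.0224, Ndfip1 from -0.0317 to 0.0469 and Ndfip2 from -0.0448 to 0.0824 between knock-out and ΔTAD.

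For libraries with the same replicate number, deviations from the genotype means had correlations of -0.0717 to 0.02. Pairs with different numbers had -0.0547 to 0.081. These correlations cannot show whether libraries with the same number were prepared together. With the replicate block, 4, 4 and 1 relatives, counting Nedd4l, and 31, 39 and 29 list genes were called. Wwp2 in knock-out against wild-type was then 0.0005. Counts of 0 to 9 in edited cells limit the precision for Nedd4l.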
